A study of Mus musculus with 91 samples.

Results

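The genes described here are the sterol and isoprenoid synthesis genes Hmgcs1, Idi1, Fdps, Fdft1, Sqle, Lss and Cyp51 and the sterol sensor gene Insig1, followed over single bone marrow progenitors of mice. They were taken as a list of 8 symbols chosen by earlier readings of the expression values of this same table, so every value below is a description and none is a test of the choice. The table held 23956 gene symbols, and 7 of the 8 had a row there. Hmgcs1 was not analysed here, and counts and means over the members refer to the other 7.

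The study measured 91 single cells of C57BL/6 mice carrying the genotype Gfi1-R412X/- Irf8+/-. They carry the mutant R412X allele of the transcriptional repressor gene Gfi1 and, by the dash in that label, no second Gfi1 copy. The transcription factor gene Irf8 has a heterozygous loss. This genotype is shared by all cells. No cell of another genotype was analysed here, so no value below speaks to the effect of any of these alleles. The cells fell into 46 labelled GMP (granulocyte-monocyte progenitor) and 45 labelled CD11b+ GMP-P, a label that the sources used here do not spell out. The sorting gate stated for both populations was lineage-negative, CD117+, Sca-1-, CD34+ and CD16/32 high, after bead enrichment for CD117. No age, sex or number of animals was stated, so each population is 1 sample of unknown make-up, its cells are not replicates, and no p-value is given.

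Values were log2(TPM + 1), where TPM is RSEM's relative transcript abundance, corrected for transcript length and summing to the same total in each cell, so that levels may be compared between genes. Read depth per cell is unknown, and the number of genes above 0 stands in for it. GMP cells had 5294 ± 801 such genes (SD over 46 cells), and CD11b+ GMP-P cells had 4112 ± 953 (SD over 45 cells). Clustering of each population without the member, lipid, cell cycle, S100a8 and S100a9 genes gave 42 and 4 cells in GMP and 29 and 16 cells in CD11b+ GMP-P. Mcpt8, a basophil and mast cell marker, was above 0 in 3 of the 4 GMP cells, at a mean of 8.58 over the 4 against 2.23 in the 42, and Elane, a neutrophil granule protease, had 7.47 against 14.36. The 16 CD11b+ GMP-P cells carried Elane at 5.15, against 13.76 in the other 29, and the later granule genes Camp at 15.68 and Ngp at 16.09, against 8.86 and 7.90; Camp and Ngp are named after their values were seen. Of the gate genes, Kit (CD117) had a mean of 3.65 in GMP and 0.90 in CD11b+ GMP-P, Cd34 of 7.22 and 2.55, and Itgam (CD11b) of 0.54 and 3.68. Ly6a, which encodes Sca-1 and goes against the stated Sca-1- gate, was above 0 in 43 GMP and 44 CD11b+ GMP-P cells, with means of 5.51 and 5.74. Of 6 macrophage markers, C1qa, C1qb, C1qc and Cd5l were at 0 in every cell, and the highest, Vcam1, was above 0 in 10 GMP and 19 CD11b+ GMP-P cells.

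Cells build cholesterol and isoprenoids from acetyl-CoA through mevalonate. Isoprenyl diphosphates made on the way also feed the lipid tails of prenylated proteins, dolichol and ubiquinone, and the branch to sterols begins where farnesyl diphosphate is joined to squalene. When sterols are scarce, the SREBP transcription factors leave the endoplasmic reticulum with their escort protein SCAP and switch on most genes of the pathway, with NF-Y as a partner on many of their promoters. Insig proteins hold SCAP back when sterols are plentiful, and Insig1 is itself an SREBP target. In dividing cells the pathway supplies membranes, and S100a8, against which the members are set below, encodes a subunit of calprotectin, a cytosolic protein that neutrophil precursors make in bulk as they mature.

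Because these genes are known as a co-regulated group, the bases upstream of their start sites were searched for shared motifs. A pair of promoters is printed as an example, and how alike the promoters are beyond such motifs was not measured. RefSeq's promoter table for the GRCm38.p6 build matched 5 of the 8 members (Hmgcs1, Idi1, Cyp51, Lss and Insig1), and Fdps, Fdft1 and Sqle were not matched. In the 250 bases before the start, read on both strands, all 5 held the NF-Y box CCAAT, which 33.8% of all 32851 promoters in that table hold. The E-box CACGTG stood only in Insig1, 101 bases before the start (6.02% of all promoters), and the SREBP element TCACNCCAC only in Hmgcs1, 137 bases before it (1.05% of all promoters). The motifs do not overlap one another. The sequences below give the 250 bases before the start of Idi1 (chr13:8885356-8885605, plus strand) and Insig1 (chr5:28071162-28071411, plus strand), 5′ to 3′, with the NF-Y box (ATTGG when read on this strand) and the E-box in capitals. A match is a description of letters and not a measured binding site.
Idi1: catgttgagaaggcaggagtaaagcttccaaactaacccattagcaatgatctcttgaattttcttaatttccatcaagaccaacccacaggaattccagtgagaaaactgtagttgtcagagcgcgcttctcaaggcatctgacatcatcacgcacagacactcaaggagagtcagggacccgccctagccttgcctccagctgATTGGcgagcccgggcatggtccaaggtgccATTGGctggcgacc
Insig1: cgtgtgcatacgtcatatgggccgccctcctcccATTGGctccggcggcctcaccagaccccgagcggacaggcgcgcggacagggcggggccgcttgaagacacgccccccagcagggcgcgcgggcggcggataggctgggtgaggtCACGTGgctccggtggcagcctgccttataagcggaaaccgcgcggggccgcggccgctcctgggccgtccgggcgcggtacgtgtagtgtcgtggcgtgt
Idi1 holds its pair of boxes 45 and 14 bases before the start, where Insig1 holds 1 box 216 bases before it.

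In the isoprenoid steps that come before sterols, the abundant gene was Fdps, the farnesyl diphosphate synthase that supplies both sterols and prenyl groups. Its level in GMP ran from 0 over a median of 6.44 to 10.04, with 33 of 46 cells above 0. In CD11b+ GMP-P it ran from 0 over a median of 2.27 to 9.58, with 29 of 45 cells above 0. Fdps was thus either high or at 0 in most GMP cells, and low values made up more of its range in CD11b+ GMP-P, although the highest cells of both populations overlapped. GMP had a mean of 5.03 ± 3.70 and CD11b+ GMP-P one of 3.27 ± 3.43 (SD over cells), a difference of -1.76. Idi1, the isomerase that provides the substrate of Fdps, was far sparser: 17 GMP cells lay above 0, with a median of 0 and a highest value of 8.49, and 6 CD11b+ GMP-P cells, with a median of 0 and a highest value of 8.38. Where Idi1 was present it could therefore be as high in one population as in the other, and the populations differed in the number of cells.

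**Figure D1:**
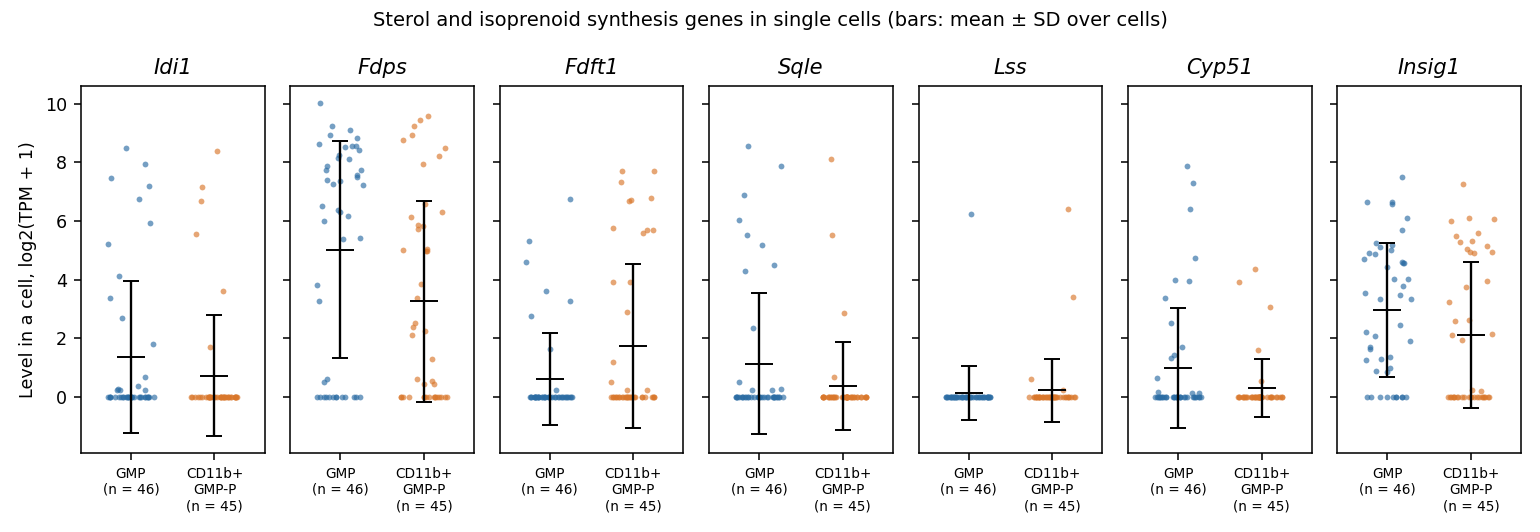
Level of each of the 7 members in every cell, as log2(TPM + 1), with the 46 GMP cells in blue and the 45 of CD11b+ GMP-P in orange; black bars give the mean and the SD over cells. Fdps and Insig1 are spread over many cells, whereas most cells lie at 0 for the other 5 members.

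At the entry into sterol synthesis stood the member that went the other way. Fdft1, squalene synthase, commits farnesyl diphosphate to sterols. It was above 0 in 8 of 46 GMP cells (median 0, highest 6.74) and in 17 of 45 CD11b+ GMP-P cells (median 0, highest 7.72). At 10 TPM or more, the count was 4 GMP cells (8.70%, exact 95% interval 2.42 to 20.8%) and in CD11b+ GMP-P it was 12 (26.7%, 14.6 to 41.9%); these intervals, which cover counting of cells only, overlap. The mean level was 0.61 ± 1.58 and 1.75 ± 2.79, a difference of 1.13. Fdft1 was the only member other than the barely detected Lss with a higher mean in CD11b+ GMP-P.

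The later sterol enzymes were each found in a minority of cells. Sqle, the squalene epoxidase that carries out the first oxygen-dependent step, was above 0 in 13 GMP cells (median 0, highest 8.55) and in 4 CD11b+ GMP-P cells (median 0, highest 8.11). Cyp51, the lanosterol demethylase, was above 0 in 15 GMP cells (median 0, highest 7.86) and 5 CD11b+ GMP-P cells (median 0, highest 4.36). Lss, which closes the ring to lanosterol, was above 0 in 1 GMP cell, at 6.25, and in 4 CD11b+ GMP-P cells, with a highest value of 6.42. Lss was under 10% of cells in both populations, too few for a difference to be read.

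Insig1 was above 0 in more GMP cells than any other member, although Fdps reached 10 TPM in more of them (30 against 22). Insig1 was above 0 in 36 of 46 GMP cells (lowest 0, median 3.34, highest 7.52). In CD11b+ GMP-P it was above 0 in 23 of 45 cells (lowest 0, median 0.21, highest 7.27). Its mean was lower than that of Fdps in both populations, at 2.97 ± 2.29 and 2.11 ± 2.49. By mean level the order in GMP was Fdps, Insig1, Idi1, Sqle, Cyp51, Fdft1 and Lss, and in CD11b+ GMP-P it was Fdps, Insig1, Fdft1, Idi1, Sqle, Cyp51 and Lss. Neighbours in either order differed by less than their SD over cells, and the change of place was that of Fdft1.

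**Figure D2:**
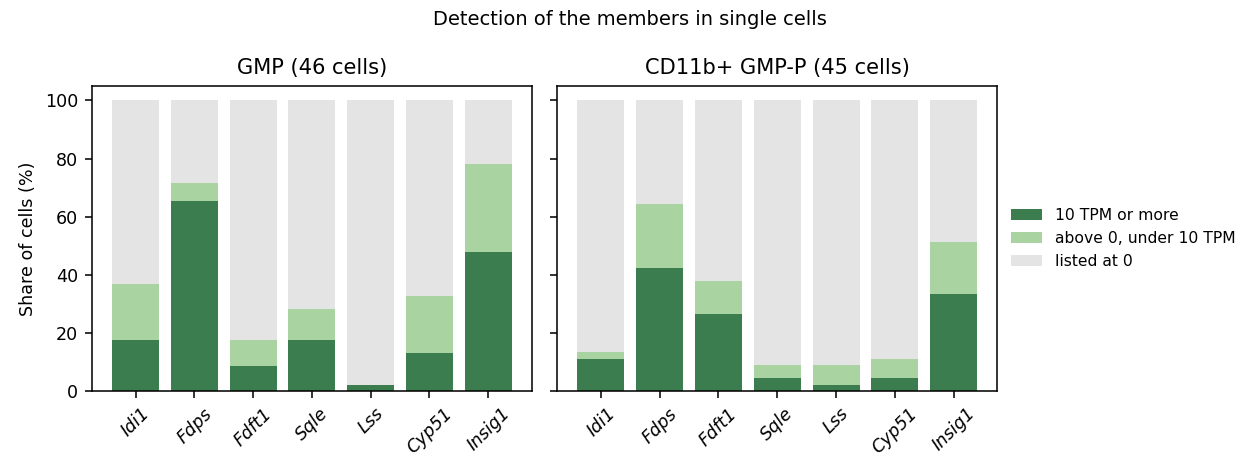
Share of cells (%) in which each member was at 10 TPM or more (dark green), above 0 but under 10 TPM (light green) or listed at 0 (grey), in 46 GMP and 45 CD11b+ GMP-P cells. The dark part is smaller in CD11b+ GMP-P for Idi1, Fdps, Sqle, Cyp51 and Insig1 and larger for Fdft1.

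Against the whole table, the lower levels in CD11b+ GMP-P did not stand out. A gene was called lower or higher where the mean log2 value differed by 1 or more. Of the 7 members, Fdps was called lower and Fdft1 higher, and the differences of the others were -0.86 for Insig1, -0.76 for Sqle, -0.69 for Cyp51, -0.63 for Idi1 and 0.10 for Lss. Among the 5133 genes detected in 50% or more of the cells in one population or the other, 51.8% were called lower and 3.7% higher, with a median difference of -1.05. Among the 10030 detected in 10% or more, 29.9% were called lower and 2.45% higher, with a median of -0.50. The median of the 7 members was -0.69, between those background medians, and the call of lower that Fdps got was the most common outcome among commonly detected genes. Fdft1, in contrast, moved in the direction that few genes of the table took. Fewer cells with the transcript and less of it per cell both lower such a mean, and the fewer genes above 0 per cell in CD11b+ GMP-P moved with it. Over the 26 GMP and 21 CD11b+ GMP-P cells of like gene number, the difference was -1.27 for Fdps, 1.83 for Fdft1, -0.06 for Insig1, -0.20 for Idi1, -0.76 for Sqle and -0.90 for Cyp51. The member median was -0.20 there, as was that of the 10030 genes detected in 10% or more. Between the larger cluster of each population the difference was -0.70 for Fdps, 0.05 for Insig1 and 1.44 for Fdft1, so that Fdps was no longer called and Fdft1 still was. As a log2 ratio of mean TPM, Fdps came to -0.81, also short of a call. Fdft1 was short of it with a pseudocount of 10, at 0.60, and without the 5% of cells with the most genes, at 0.97, and the sign for Lss turned under 2 of 7 alternatives.

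Within CD11b+ GMP-P the members were uneven between the clusters. In the 16 cells with high Camp and Ngp, Fdps and Insig1 reached 10 TPM in 0 of 16 cells, which allows a share of up to 18.8% of such cells by a limit of 3 cells (exact 95% upper limit 20.6%), and Idi1 and Sqle were at 0 in all. In the other 29 cells Fdps reached 10 TPM in 19 and Insig1 in 15. Fdft1 reached 10 TPM in 3 of the 16 and 9 of the 29. Over all members, 4 of 112 values in the 16 cells were at 10 TPM or more (3.57%), against 52 of 203 in the 29 (25.6%). The mean of Fdps was 0.47 in the 16 cells and 4.81 in the 29, and that of Insig1 was 0.32 and 3.10. The median difference of the members between these clusters was -1.02, and that of the 3313 genes detected in 50% or more of CD11b+ GMP-P cells was -1.45. The 16 cells had fewer genes above 0, at 3184 ± 573 (SD) against 4624 ± 699, and 66.4% of their TPM lay in the 50 highest genes, against 39.3%. Since clusters were drawn from the expression values, these contrasts describe the clusters and test nothing, and the part of the lower gene number in them was not tested. In GMP the 4 cells of the smaller cluster had Fdps, Fdft1, Sqle, Cyp51 and Lss at 0 in every cell and Insig1 at 10 TPM or more in 1. In the other 42 these 5 were above 0 in 33, 8, 13, 15 and 1 cells, and a count of 0 of 4 has an exact 95% upper limit of 60.2%. The median difference between these clusters was -1.09 for the members and -1.48 for the 5000 genes detected in 50% or more of GMP cells. The 4 cells had 3442 ± 599 (SD) genes above 0, against 5471 ± 558.

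Cells differed in how many members they held. A GMP cell had 2.67 ± 1.21 of the 7 members above 0 and 1.72 ± 1.11 at 10 TPM or more (SD, 46 cells), and a CD11b+ GMP-P cell had 1.96 ± 1.19 and 1.24 ± 1.13 (SD, 45 cells). No cell had more than 5 members above 0, or more than 4 at 10 TPM or more. At least 1 member was above 0 in 45 GMP cells and 39 CD11b+ GMP-P cells, and at least 2 in 38 and 31. Most cells thus held transcripts of more than 1 of these genes, and none of all 7.

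Coordination between members was weak. Over the 46 GMP cells the 21 pairs had a median Spearman rho of -0.02, from -0.18 to 0.27, and none reached 0.3. Of pairs of genes detected in 50% or more of the cells, 4.16% did. Of pairs of genes within the members' range of detection (2.17 to 78.3% of GMP cells above 0), 3.82% did. Over the 45 CD11b+ GMP-P cells the median was 0.06, from -0.23 to 0.36. There 2 pairs reached 0.3, Idi1 with Lss at 0.36 and Sqle with Insig1 at 0.35, and each of those rests on a gene found in 4 cells. The background shares in CD11b+ GMP-P were 14% of pairs of commonly detected genes and 6.95% of pairs of genes within the members' range. That range was 8.89 to 64.4% of CD11b+ GMP-P cells above 0. It is wide and not matched to each member, and 2 of 21 is not apart from these shares. The median rho over the latter pairs was 0.05, close to that of the members. These correlations share the library and the depth of each cell and are sparse, and a weak one among them is no finding.

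The pair of widely detected members, Fdps and Insig1, gave the fullest view. Their rho was 0.26 in GMP, where 16 cells had both at 10 TPM or more, 14 Fdps alone, 6 Insig1 alone and 10 neither. In CD11b+ GMP-P it was 0.28, with 11, 8, 4 and 22 cells in the same order, and 0.07 once the number of genes above 0 was held fixed (a partial rank correlation). Of the 14 GMP cells with Fdps alone at that level, 5 had Insig1 at 0 and the others had it under 10 TPM. Sqle and Cyp51, which act in the same stretch of the pathway, had the highest rho in GMP, at 0.27.

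**Figure D3:**
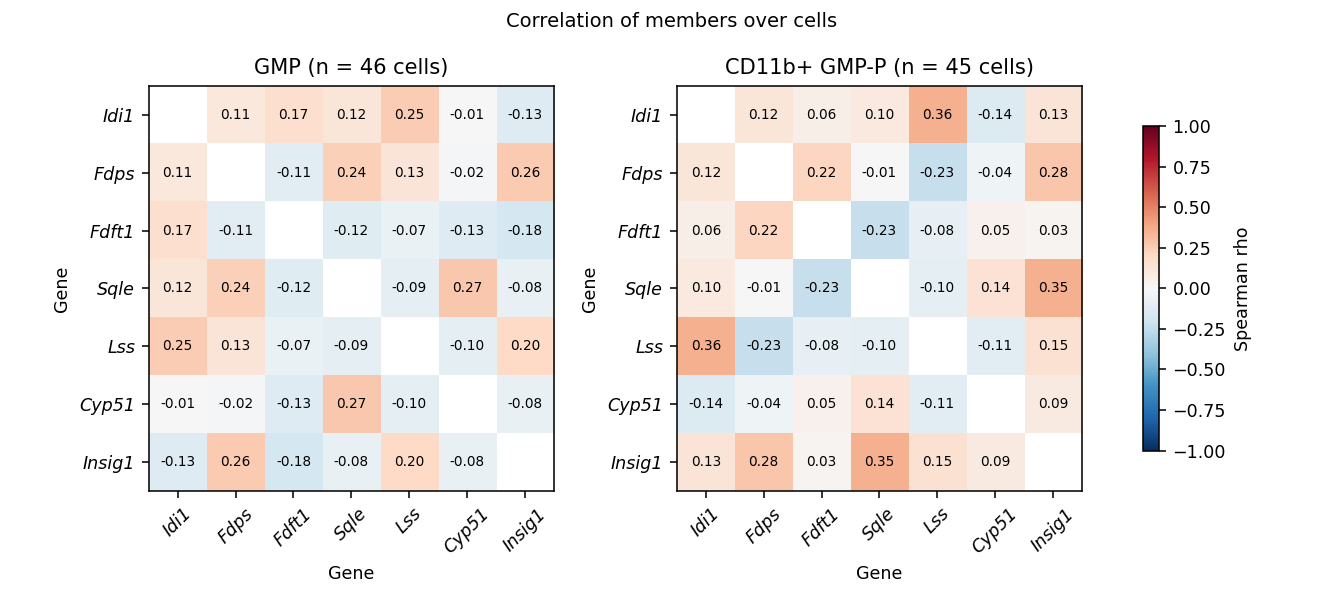
Spearman rho over cells between each pair of the 7 members in 46 GMP cells (left) and 45 CD11b+ GMP-P cells (right), on a colour scale from -1 to 1 with the value in each square. Most squares are pale, and the highest values are 0.27 (Sqle with Cyp51) in GMP and 0.36 (Idi1 with Lss) in CD11b+ GMP-P.

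S100a8 varied widely in GMP and was high in most CD11b+ GMP-P cells. Its level in GMP ran from 4.15 over a median of 8.45 to 15.04, and in CD11b+ GMP-P from 3.69 over 16.83 to 17.61. The mean of the 7 members in a GMP cell was 1.75 ± 1.03 (0 to 3.90), and in a cell of CD11b+ GMP-P it was 1.25 ± 0.99 (0 to 3.65). In GMP the rho of that mean with S100a8 was 0.20 over 46 cells, and 0.08 over the 42 cells of the larger cluster. None of the 7 members reached 0.3 in size in GMP, where 5.35% of genes within the members' range of detection did. The rho of the members lay between 0.05 for Cyp51 and 0.23 for Fdps. With S100a9, the other calprotectin subunit, the member mean had 0.21, and 1 of 7 members passed 0.3 in size, where 4.63% of genes within that range did. That member was Fdps, at 0.41, and at 0.39 within the larger cluster.

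In CD11b+ GMP-P the member mean was lower in cells with more S100a8, but not every member had such a relation. The rho of the member mean with S100a8 was -0.68 over 45 cells, and with S100a9 -0.74. Insig1 had -0.61, Fdps -0.43 and Idi1 -0.35, and the remaining values were -0.29 for Sqle, -0.16 for Lss, -0.08 for Fdft1 and -0.05 for Cyp51. With 3 of 7 members at -0.3 or lower, the background of 28.2% of genes within the members' range of detection shows that such a relation was common in these cells. Fdps and Insig1, above 0 in 64.4% and 51.1% of the cells, lie toward the upper end of that range. The number of genes above 0 moved with both sides, with a rho of 0.72 to the member mean and -0.76 to S100a8. Held fixed, it left the member mean at -0.30 with S100a8 and at -0.42 with S100a9. For single members with S100a8 it left -0.25 for Insig1, -0.26 for Fdps and -0.07 for Idi1, and Fdft1 and Cyp51 then had 0.18 and 0.08.

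Insig1 and Fdps differed in their rho with S100a8 within the larger CD11b+ GMP-P cluster. Among the 29 cells of the larger CD11b+ GMP-P cluster, the rho with S100a8 was -0.42 for Insig1 and -0.01 for Fdps. Given the number of genes above 0, these values were -0.29 for Insig1 and -0.12 for Fdps, closer to each other. Over all 45 cells they were -0.25 and -0.26 given that number. What lies behind the difference within the larger cluster was not tested. The member mean had -0.44 within those 29 cells, and 0.12 within the 16, where S100a8 spanned only 16.91 to 17.61. Fdft1 had 0.05 and 0.26 in the same cells.

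**Figure D4:**
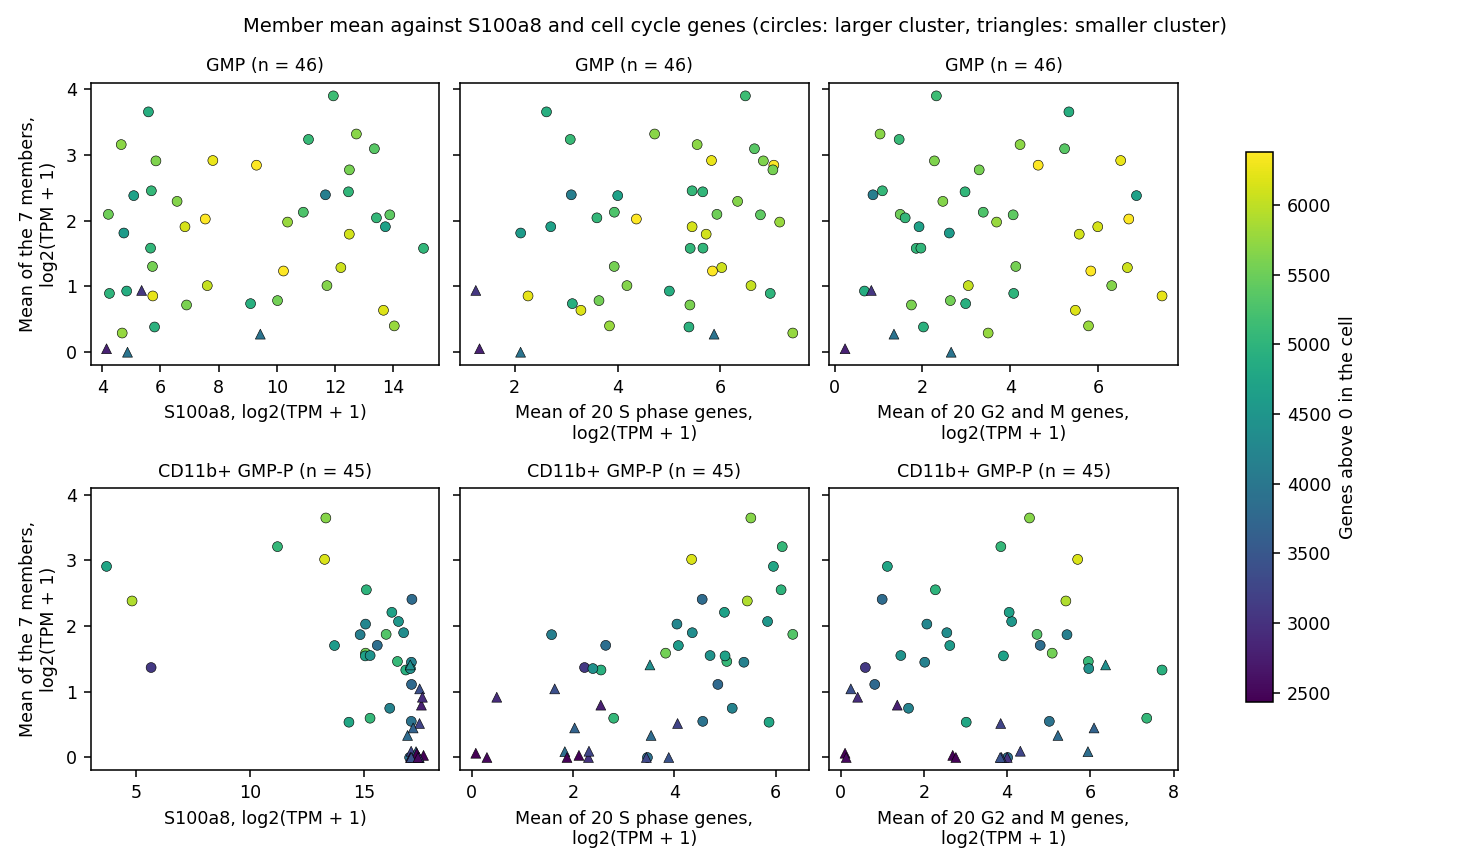
Mean of the 7 members in each cell, as log2(TPM + 1), against S100a8 (left), the mean of 20 S phase genes (middle) and the mean of 20 G2 and M genes (right), for GMP (top, 46 cells) and CD11b+ GMP-P (bottom, 45 cells). Circles mark the larger and triangles the smaller cluster of each population, and colour gives the number of genes above 0; in the bottom left panel many of the cells with most S100a8 have few genes above 0 and a low member mean.

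Cell cycle genes were taken as 20 genes of S phase (DNA replication) and 20 of G2 and M phase (entry into and passage through mitosis). In GMP the rho of the member mean with the S phase mean was 0.25, and 0.21 given the number of genes above 0. CD11b+ GMP-P had 0.62 and 0.23 for the same pair of values. With the G2 and M mean, GMP had a rho of 0.03, or -0.06 given that number, and CD11b+ GMP-P had 0.07, or -0.46. The rho with the S phase mean was thus above that with the G2 and M mean in both populations. In GMP it stayed under 0.3, and the larger S phase value of CD11b+ GMP-P came down to that of GMP when gene number was held fixed.

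Single cell cycle genes were set against the member mean as well. Of the S phase genes, the highest in GMP were the replicative helicase subunit Mcm6 at 0.39, the helicase loader Cdc6 at 0.30 and Mcm4, another helicase subunit, at 0.25. There 2 of the 20 reached 0.3, and the share over all genes was not computed for GMP. In CD11b+ GMP-P they were Chaf1b, which brings histones to new DNA, at 0.53, Mcm6 at 0.49 and Mcm3 at 0.46. Mcm6 was thus among the leading genes in both populations. In CD11b+ GMP-P 15 of the 20 S phase genes reached 0.3, against 41.9% of commonly detected genes. Given gene number, 1 of the 20 did (Chaf1b, at 0.41), against 5.74%. That background holds genes above 0 in 50% or more of these cells. Chaf1b, at 33.3%, and some other genes of the cell cycle lists were detected less often. Of the G2 and M genes, Mki67 had -0.26, Aurkb 0.18 and Cdc20 0.15 in GMP, and Aurka 0.27, Ccnb1 0.24 and Hmmr 0.22 in CD11b+ GMP-P. Thus 0 of 20 reached 0.3 in either population, whereas 41.9% of commonly detected genes did so in CD11b+ GMP-P. Given gene number, 9 of the 20 G2 and M genes lay at -0.3 or lower in CD11b+ GMP-P, where 3.05% of commonly detected genes did. By member, the S phase mean had its highest rho in CD11b+ GMP-P with Insig1 at 0.51 and Idi1 at 0.47, which became 0.09 and 0.28 given gene number, and in GMP with Idi1 at 0.24.

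Among the other sterol pathway and isoprenoid genes, calls of lower in CD11b+ GMP-P did not stand out from the background. That background is the 29.9% called lower among all genes detected in 10% or more of the cells. Of 13 other sterol pathway genes, 3 were called lower and 0 higher, with a median difference of -0.44. Nsdhl and Msmo1, which act in removing methyl groups from the sterol ring, had differences of -1.21 and -1.03, and Acat2, the thiolase at the head of the pathway, had -1.19. Of 11 genes that use or extend isoprenoids, 2 were called lower and 0 higher (median -0.22): Rabggtb, which puts geranylgeranyl groups on Rab proteins, at -2.39, and Ggps1, which makes geranylgeranyl diphosphate, at -1.22. Nus1, a subunit of the dolichol-making enzyme, was at -0.93. No gene of these lists was called higher, as Fdft1 was among the members.

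Among 13 measured genes of sterol control and transport, 3 were called lower and 0 higher, with a median of -0.57. These were Npc2, which carries cholesterol out of lysosomes, with means of 6.25 in GMP and 4.25 in CD11b+ GMP-P, Mbtps1, the protease that cuts SREBPs, with a difference of -1.89, and Soat1, which esterifies cholesterol, at -1.23. Other genes of the SREBP system had differences of -0.60 for Srebf2, -0.08 for Srebf1, -0.49 for Scap and -0.57 for Insig2. Of 8 measured fatty acid synthesis genes, which share SREBP control, 4 were called lower and 0 higher (median -0.95), with Elovl5, a fatty acid elongase, at -2.89, Scd2, a desaturase, at -2.73 and Acly, which makes cytosolic acetyl-CoA, at -1.52. Genes detected in 10% or more of the cells, the filter used for these lists, had a median of -0.50, and 29.9% were called lower. Genes detected in 50% or more had a median of -1.05, and 51.8% were called lower. The 4 fatty acid genes called lower were all of this more often detected kind. The medians of the sterol pathway and isoprenoid lists lie above -0.50, and those of the control and fatty acid lists between -0.50 and -1.05.

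**Figure D5:**
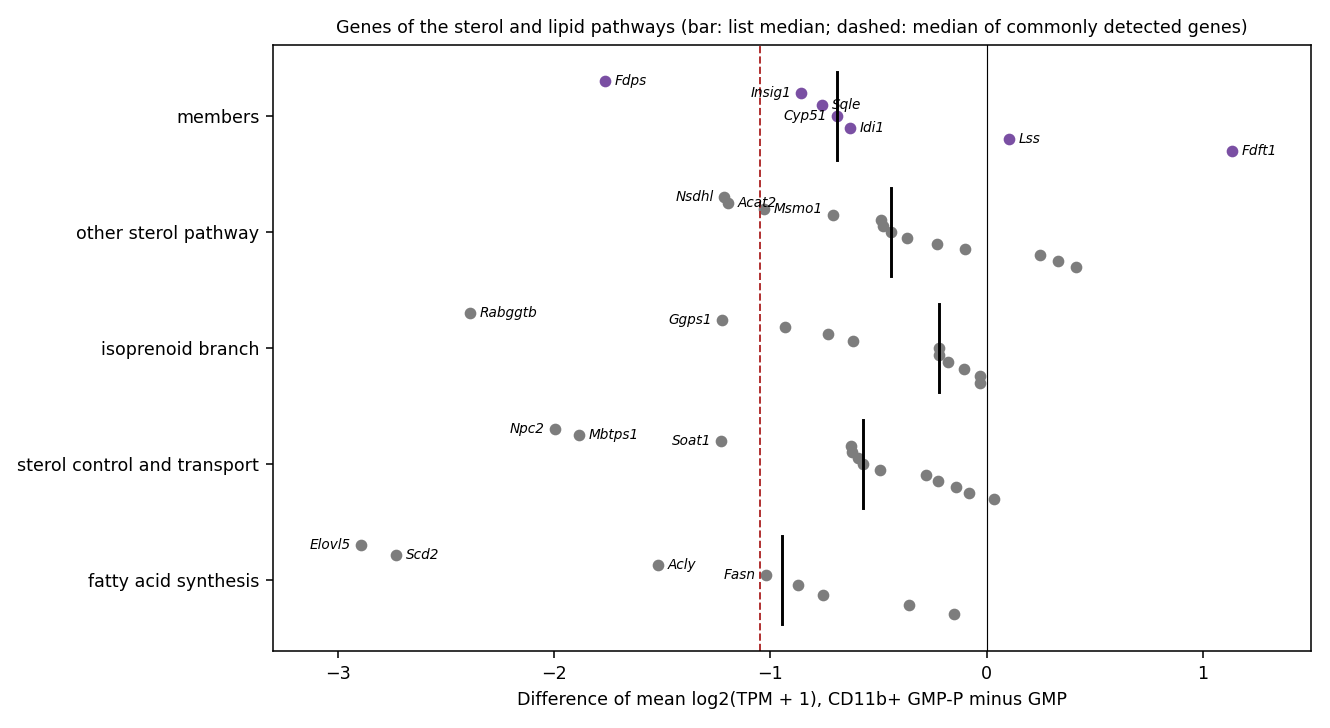
Difference of the mean log2(TPM + 1), CD11b+ GMP-P minus GMP, for each gene of the members (purple) and of 4 further lists (grey); short black bars are list medians and the dashed red line is the median of commonly detected genes (-1.05). Genes with a difference of 1 or more in size and all members are named, and Fdft1 alone lies beyond 1 on the right.

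Genes were ranked by how like the member mean their pattern over cells was. The ranking by rho took the genes that 50% or more of a population's cells held above 0. Of 5000 such genes in GMP, 18 were of the other pathway lists, and of 3313 in CD11b+ GMP-P, 7 were. None of these was among the 8 highest, but so few could hardly be found there. Their median rho was 0.13 in GMP (highest 0.23) and 0.33 in CD11b+ GMP-P (highest 0.55). In GMP the highest were Mrpl41 (0.55), Rpp40 (0.54), Plekhb2 (0.51), Msl3 (0.51), Rapgef6 (0.48), Xpc (0.48), Ndufb6 (0.48) and Snrpe (0.47), and the lowest were Anapc16 (-0.57), 1500011B03Rik (-0.50) and Slc35e2 (-0.48). In CD11b+ GMP-P they were Prdx2 (0.77), Rps2 (0.76), Rps18 (0.75), Rps12 (0.75), Rps6 (0.74), Slc25a5 (0.74), Hsp90ab1 (0.74) and Rpl27a (0.73), and the lowest were Ngp (-0.74), S100a9 (-0.74) and Anxa1 (-0.71). The GMP genes are on none of the lists used here, whereas 5 of the 8 in CD11b+ GMP-P encode ribosomal proteins and Ngp at the low end encodes a neutrophil granule protein. Ribosomal protein genes, taken as a list after this was seen, had a median rho of 0.62 with the member mean over 80 genes in CD11b+ GMP-P (0.28 given gene number) and of -0.06 over 82 genes in GMP. The median of all commonly detected genes was 0.26 in CD11b+ GMP-P and 0.05 in GMP.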

How the data were processed

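The authors' deposited table holds log2(TPM + 1) values for 23956 genes in 91 cells, estimated with RSEM against the mm9 build per the submitters' processing notes; per the labels' protocols, SMARTer cDNA was made on a Fluidigm C1 and libraries with Nextera XT. The sources used here give no RSEM version, annotation or cell filter. These libraries carry no molecular identifiers. Doublets were not assessed.

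Cells were grouped by their labels. Levels, differences of means and Spearman correlations were computed with Python 3.11.15, pandas 2.3.3, numpy 2.4.6 and scipy 1.17.1, and clusters (Ward linkage on 10 principal components of 500 variable genes, 2 to 5 clusters by silhouette) with scikit-learn 1.9.0. Shares carry exact (Clopper-Pearson) 95% intervals, which cover counting of cells only, as does the limit of 3 cells that a count of 0 allows. Partial correlations hold the ranks of the number of genes above 0 fixed. The steps were tested on simulated data.

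The members and lists were chosen with earlier results of these data known. Named were all members, the 3 genes of each pathway and cell cycle list with the largest difference or rho in size, the main SREBP genes, and the 8 highest and 3 lowest genes by rho with the member mean. Marker genes were gate genes, Elane and the highest gene of a list; others are said to be named after their values were seen, and markers at 0 are given as such. Genes above 0 in fewer than 10% of cells in both populations were left out of list counts. Some genes of the pathway lists are not reported here. Alternatives were other pseudocounts (0.1 and 10), means of TPM, scaling by median of ratios, cells of like gene number, cells of the larger clusters, and cells left out.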

Additional observations from a re-analysis of the deposited data

How the results depend on the processing

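No population has replicate samples and depth per cell is unknown, so precision cannot be stated beyond the spread over cells; a member listed at 0 may have been missed. Of 49 alternative values for single member differences, 10 changed the call and 3 the sign (Insig1 once, at 0.05, and Lss in 2); Cyp51 came to -2.71 as a log2 ratio of mean TPM. The number of members lower by 1 or more was 5 with a pseudocount of 0.1 (Idi1, Sqle, Cyp51 and Insig1 joined Fdps), 2 by mean TPM and 0 between larger clusters (chosen after seeing the data), against 1. Fdps was then -0.81 by mean TPM and -0.70 between larger clusters, and Fdft1 was 0.60 with a pseudocount of 10 and 0.97 without the 5% of cells with the most genes. Scaling by median of ratios moved the median of commonly detected genes from -1.05 to -0.60 and left 1 member lower and 1 higher; without a filter on detection 23.2% of genes were called lower.

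In GMP, the correlation of the member mean with S100a8 was 0.11 with values under 10 TPM set to 0, 0.28 over 26 cells of shared gene number, 0.078 in the larger cluster, 0.27 without the 2 cells farthest from the median and 0.057 for the number of members at 10 TPM or more (added after seeing the data). In that larger cluster it was 0.14 with S phase and -0.14 with G2 and M genes. In CD11b+ GMP-P, the values given gene number, over 21 cells of shared gene number and in the larger cluster were -0.30, -0.36 and -0.44 with S100a8, 0.23, 0.42 and 0.38 with S phase genes, and -0.46, -0.36 and -0.078 with G2 and M genes. The median correlation between members stayed between -0.08 and 0.05 in GMP and between -0.07 and 0.07 in CD11b+ GMP-P under 8 alternatives each. The causes of these shifts were not tested. No paired analysis was possible because the labels name no animal for any cell, and no test was run.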
